A study of Homo sapiens with 11 samples.

Results

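The genes described here encode core proteins of the RAS, RAF, MEK and ERK cascade: the RAS GTPases NRAS and HRAS, the RAF kinases ARAF and BRAF, the MEK kinases MAP2K1 and MAP2K2, and the ERK kinase MAPK3. They were taken by name, as the rows of a gene-level read count table whose Ensembl IDs carry these symbols in GENCODE release 29. The choice of these genes was made with earlier results of these data known. All 7 were found among the 58721 genes of the table, and all 7 passed the filter on low counts, as did 23693 genes in all.

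The cells were A375, an established human melanoma cell line with an activating BRAF mutation, given as wild type in the labels and grown in DMEM with 10% FBS. Poly(A) RNA was sequenced from 11 libraries in 3 groups. Withdrawn cells (5 libraries) had lived in 2 nM trametinib, a MEK inhibitor, for 8 weeks and then 4 weeks without it. Persister cells (5 libraries) were taken after 8 weeks in 2 nM trametinib, and parental cells (1 library) had no treatment. All libraries thus come from 1 cell line. The withdrawn samples carry the numbers of the persister cultures, so a number is called a culture below. Whether the 5 cultures went through separate drug selections is not in the labels, and the spread that the p-values rest on may therefore be technical.

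In this cascade, growth factor receptors load RAS with GTP, active RAS recruits RAF kinases to the membrane, RAF phosphorylates MEK, and MEK phosphorylates ERK. Active ERK moves into the nucleus, where it drives transcription of genes that include its own inhibitors. In melanoma the cascade is often switched on by mutations in BRAF or NRAS. Each step is carried by paralogs, genes with closely related sequences that can stand in for each other in part.

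Total counts per library lay between 56513920 and 82984566, and the members together held 27703 to 42897 of them. The lowest count of any member in any library was 1044. DUSP6, a phosphatase of ERK transcribed on ERK activity, served as a check of the drug labels. DUSP6 averaged 186.4 ± 9.28 CPM in withdrawn cells, 24.79 ± 4.78 CPM in persister cells (SD, n = 5 each) and 167.6 CPM in the parental library. SPRY2 and SPRY4, feedback inhibitors of the cascade, were also called lower in persister than in parental cells (log2 fold changes of -2.71 and -4.70) and higher after withdrawal (2.73 and 4.69). CPM are read counts divided by the size of the library, with edgeR's TMM scaling. Of the melanocytic markers, SOX10 averaged 814 CPM in withdrawn cells, 51.9 CPM in persister cells and 635 CPM in parental cells, while TYR was at most 0.0382 CPM in any group mean. DCT, the highest of these markers in persister cells, averaged 34.3 CPM in withdrawn cells, 424 CPM in persister cells and 2.94 CPM in parental cells, and MLANA averaged 0.657, 16 and 1.15 CPM in these groups. The summed level of the 7 melanocytic markers was 1030 to 1140 CPM in withdrawn libraries, 390 to 997 CPM in persister libraries and 790 CPM in the parental library. The summed level of 6 fibroblast markers was 23.2 to 30.7 CPM in withdrawn libraries, 54.1 to 341 CPM in persister libraries and 15.1 CPM in the parental library, with LUM the highest of them in persister cells. The 5 keratinocyte markers summed to 35.1 to 39.2 CPM in withdrawn libraries, 47.8 to 59.7 CPM in persister libraries and 40.3 CPM in the parental library, and the 4 endothelial markers to 16.3 to 26.4 CPM, 2.18 to 15.3 CPM and 17.9 CPM in these groups. The 5 leukocyte markers summed to at most 0.693 CPM in any library, and the keratinocyte marker KRT1 had no counts anywhere. Mitochondrial transcripts took 3.15% to 3.70% of counts in withdrawn libraries, 4.51% to 9.28% in persister libraries and 2.96% in the parental library. The proliferation marker MKI67 was at 553 to 685 CPM in withdrawn libraries. In persister libraries it was at 154 CPM in culture 1, 45.4 CPM in culture 5 and 496 to 707 CPM in the others, and the parental library had 865 CPM. The part of these differences in the results below was not tested, except where values without persister 1 and 5 are given. In bulk RNA, fewer cells of a type and less RNA per cell cannot be told apart.

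The MEK genes moved in opposite directions under the drug. MAP2K2 was 2.03-fold higher and MAP2K1 1.30-fold lower in persister than in parental cells, and these were the only members called in that comparison. After withdrawal 5 of the 7 members were called against persister cells: HRAS and MAP2K2 fell, and BRAF, MAP2K1 and MAPK3 rose. No member was called between withdrawn and parental cells. A gene is called here where its adjusted p in edgeR's quasi-likelihood test was under 0.05. The background is wide: 31.2% of all genes tested were called between persister and parental cells, 52.5% between withdrawn and persister cells and 0.431% between withdrawn and parental cells. In the second comparison 24.5% of genes were called higher and 28% lower. The members' counts were 2 of 7 and 5 of 7 beside the first and second of these shares. The median log2 fold change of the members was 0.055 in persister against parental cells, beside 0.094 over all genes tested, and 0.094 in withdrawn against persister cells, beside -0.033. Between persister libraries and the parental library 3 of 7 members did not overlap (MAP2K2 higher, NRAS and MAP2K1 lower), beside 63.6% of all genes tested (32.7% higher, 30.9% lower). Between withdrawn and persister libraries the 5 called members did not overlap, beside 40.6% of all genes (20.3% in each direction). Between withdrawn libraries and the parental library none of the 7 overlapped (4 higher, 3 lower), beside 63.8% of all genes (33% higher, 30.8% lower). The comparisons share libraries, so their values are set side by side and not correlated.

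**Figure D1:**
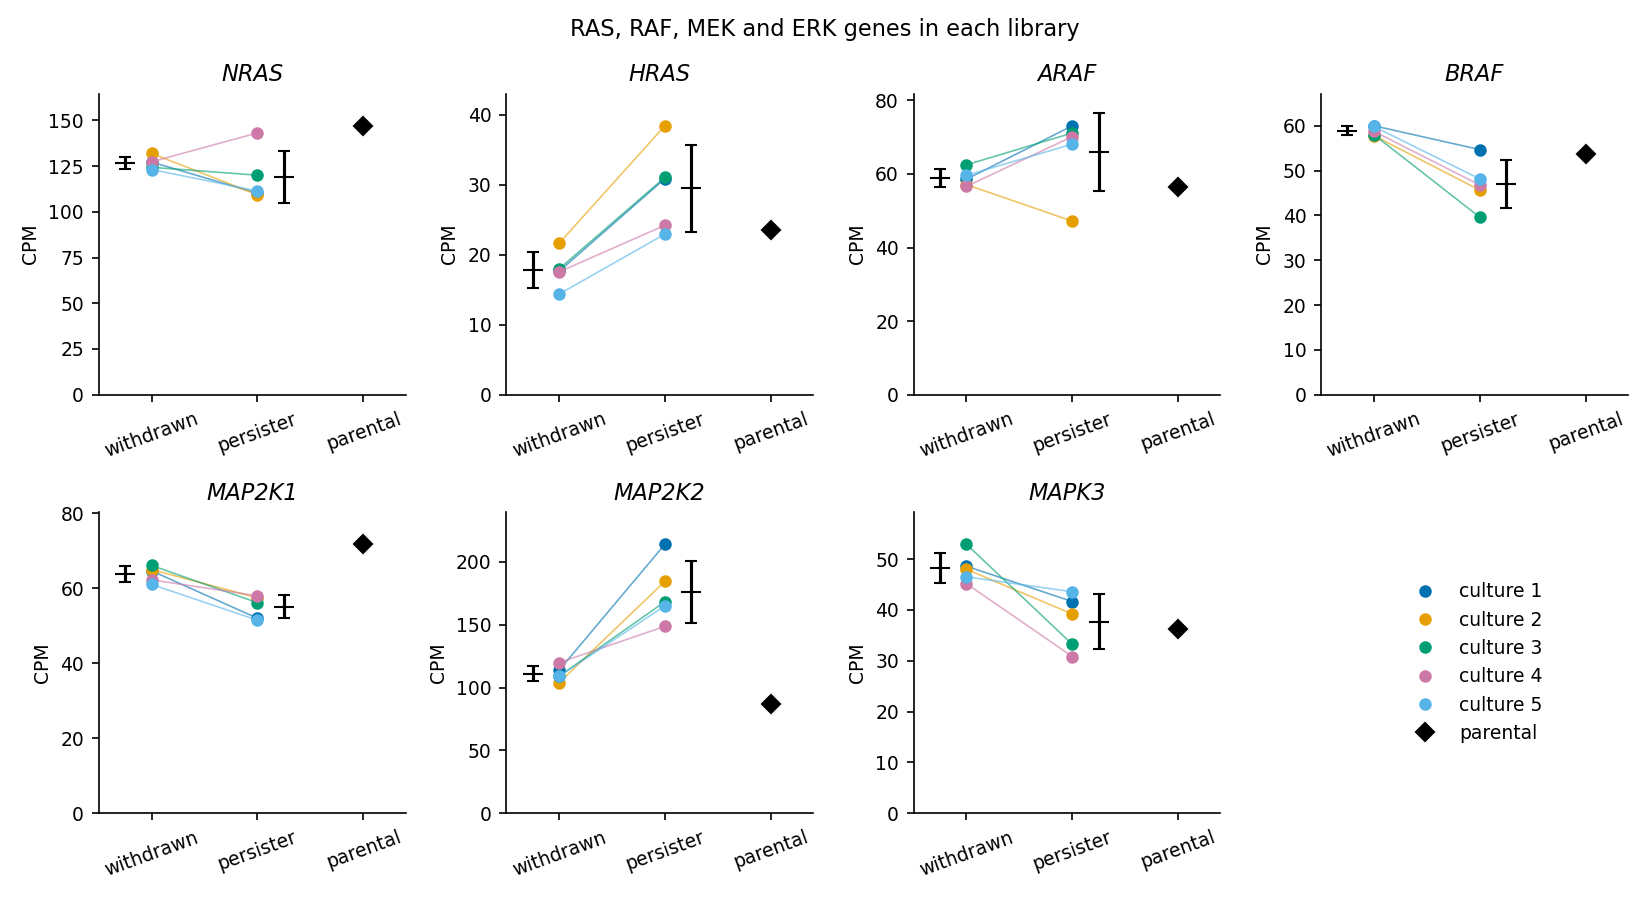
Level of each member in CPM (vertical axes, from 0) in withdrawn, persister and parental libraries; points are libraries, coloured and joined by culture, diamonds are the parental library, and bars are the mean and SD of 5 libraries. MAP2K2 sits between 148.7 and 214 CPM in persister libraries, above every withdrawn library (103.8 to 119.8 CPM) and the parental library (86.62 CPM).

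NRAS and HRAS are the membrane switches at the head of the cascade, active when bound to GTP. NRAS (ENSG00000213281, GRCh38 chr1:114704469-114716894, minus strand) measured 127.2, 131.9, 124.3, 127.3 and 123.1 CPM in withdrawn libraries 1 to 5. The persister libraries had 110.1, 109.3, 120, 143.1 and 111.4 CPM, and the parental library had 147 CPM. Every withdrawn and persister library lay below the parental one, and only persister 4 came close to it. The mean was 126.8 ± 3.41 CPM in withdrawn cells and 118.8 ± 14.26 CPM in persister cells (SD, n = 5 each). The log2 fold change of persister against parental cells was -0.31 ± 0.15 (SE, adjusted p = 0.125), short of the threshold. This rested on 1 library: without persister 4 it was -0.38 with an adjusted p of 0.0251. Genes of like base composition, described below, had a median of -0.211 in persister against parental cells with all libraries. With offsets for base composition, NRAS itself was at 0.034 there over all libraries, not called. Withdrawn and persister libraries overlapped, with a log2 difference of 0.094 ± 0.086 (SE, adjusted p = 0.378), higher in the withdrawn library of 4 of 5 cultures. Culture 4 went the other way, with a log2 difference of -0.17.

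HRAS (ENSG00000174775, GRCh38 chr11:532242-537287, minus strand) was the member with the widest spread within groups, with a coefficient of variation of 14.5% in withdrawn and 21.1% in persister libraries. It measured 17.62, 21.63, 17.97, 17.54 and 14.37 CPM in withdrawn libraries, 30.87, 38.42, 31.04, 24.2 and 22.94 CPM in persister libraries and 23.54 CPM in the parental library. All 5 withdrawn libraries lay below all 5 persister libraries and below the parental one, while the persister libraries lay on either side of it. HRAS fell in withdrawn cells to 17.83 ± 2.58 CPM, against 29.5 ± 6.22 CPM in persister cells (SD, n = 5 each), a log2 fold change of -0.73 ± 0.15 (SE, adjusted p = 0.00177). The fall was seen in 5 of 5 cultures, by -0.83 to -0.46 on the log2 scale. Against the parental library, persister cells differed by 0.33 ± 0.27 (log2, SE, adjusted p = 0.372) and withdrawn cells by -0.40 ± 0.25 (adjusted p = 0.489). Culture 2 was the highest of its group both in persister and in withdrawn libraries, by 0.51 and 0.36 log2 units above the other 4. Among 52 protein-coding genes within 5 Mb of HRAS, the median deviation of withdrawn 2 from the other withdrawn libraries was 0.25, and that of persister 2 from the other persister libraries was 0.056.

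ARAF and BRAF are kinases that RAS recruits and that phosphorylate MEK; BRAF has the higher basal activity. BRAF (ENSG00000157764, GRCh38 chr7:140719327-140924928, minus strand) measured 60.01, 57.81, 58.03, 58.77 and 59.85 CPM in withdrawn libraries, 54.7, 45.65, 39.62, 46.8 and 48.15 CPM in persister libraries and 53.74 CPM in the parental library. The withdrawn libraries lay close together and above all others, and persister 1 alone among the persister libraries exceeded the parental one. BRAF rose in withdrawn cells to 58.89 ± 1.01 CPM, against 46.98 ± 5.41 CPM in persister cells (SD, n = 5 each), a log2 fold change of 0.33 ± 0.08 (SE, adjusted p = 0.00674). It was higher in 5 of 5 cultures, by 0.13 to 0.55 log2 units. Persister cells differed from the parental library by -0.19 ± 0.14 (log2, SE, adjusted p = 0.323). BRAF shares 1239 exon bases, 5.29% of its exon length, with NDUFB2 on the opposite strand, and whether counting used strand is not stated. NDUFB2, a subunit of mitochondrial complex I, had 2074 to 2735 counts in withdrawn libraries, 4127 to 9577 in persister libraries and 2020 in the parental library. It was thus highest in the persister group, where BRAF was lowest on average. The part of reads from the shared bases in the BRAF counts was not tested.

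ARAF (ENSG00000078061, GRCh38 chrX:47561100-47571920, plus strand) measured 58.55, 57.08, 62.46, 56.6 and 59.61 CPM in withdrawn libraries, 73.07, 47.16, 71.11, 70.12 and 68.08 CPM in persister libraries and 56.31 CPM in the parental library. The other 4 persister libraries lay above every withdrawn library, while persister 2 was the lowest of all 11. Withdrawn cells had 58.86 ± 2.34 CPM and persister cells 65.91 ± 10.63 CPM (SD, n = 5 each), a log2 difference of -0.16 ± 0.11 (SE, adjusted p = 0.238). Persister against parental cells gave 0.23 ± 0.20 (log2, SE, adjusted p = 0.397). Without persister 2 both comparisons were called, at 0.33 (adjusted p = 0.0323) against parental cells and -0.26 (adjusted p = 0.00422) for withdrawn against persister cells. Genes of like base composition, described below, had medians of 0.305 and -0.224 in these comparisons with all libraries. With offsets for base composition, ARAF itself was at -0.045 and 0.037 over all libraries, not called in either comparison. Much of the X chromosome was low in persister 2: its 422 X-linked protein-coding genes had a median log2 deviation of -0.40 from the other 4 persister libraries, and these 4 had 0.12 to 0.16. Around ARAF, 45 of 52 genes within 5 Mb lay below the other persister libraries, with a median of -0.56, and ARAF itself was at -0.58. In withdrawn 2 the same chromosome was at 0.019 and ARAF at -0.054. For BRAF the largest such shift was in persister 1, where chromosome 7 had a median of 0.31 over 540 genes and BRAF was at 0.28, with withdrawn 1 at 0.005.

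**Figure D2:**
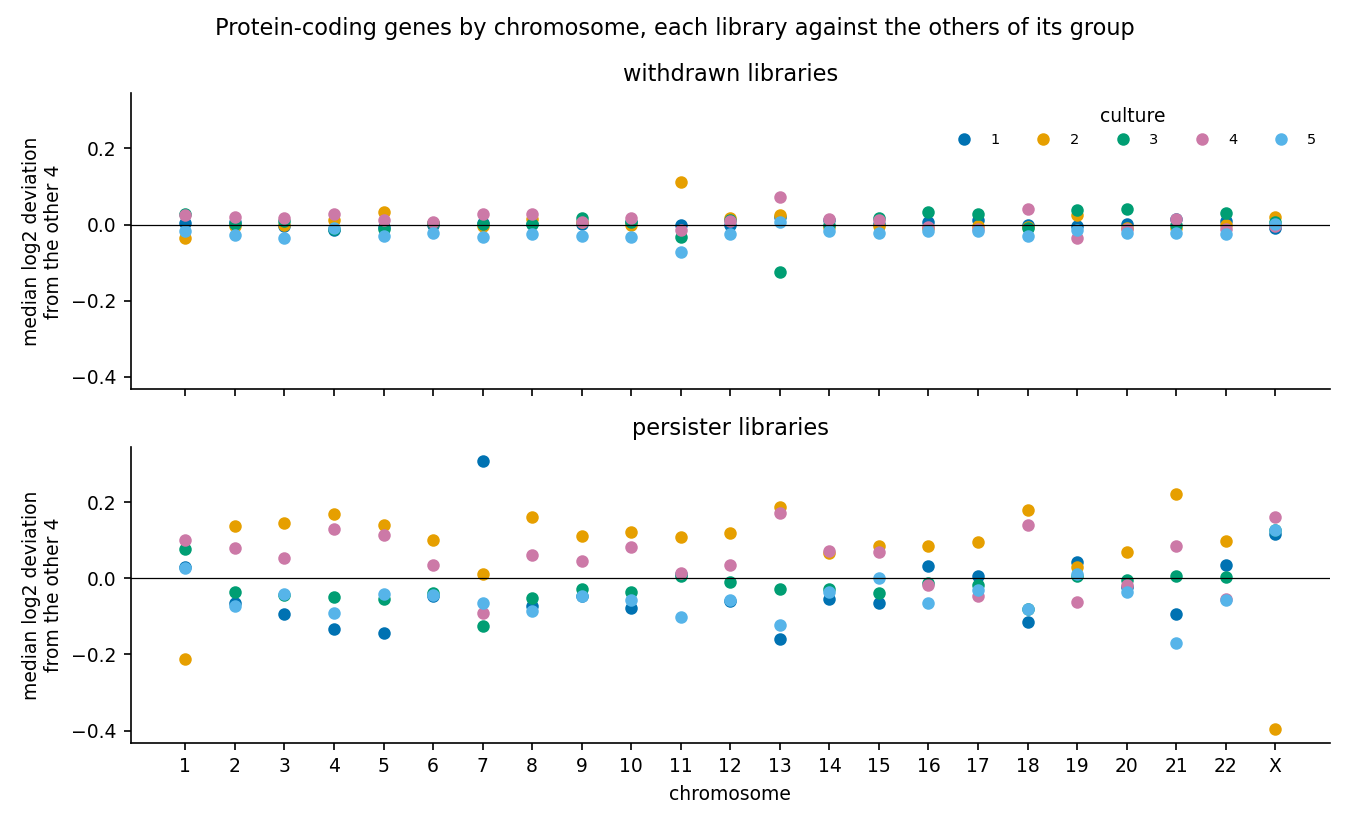
Median log2 deviation of protein-coding genes (vertical axes) on each chromosome (horizontal axis) in each withdrawn (upper) and persister (lower) library from the other 4 libraries of its group; points are libraries, coloured by culture. Persister 2 is at -0.40 on the X chromosome, which holds ARAF, and persister 1 at 0.31 on chromosome 7, which holds BRAF, while the withdrawn libraries of these cultures are at 0.019 and 0.005 there.

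MAP2K1 and MAP2K2 encode MEK1 and MEK2, the kinases that phosphorylate ERK and that trametinib inhibits. MAP2K2 (ENSG00000126934, GRCh38 chr19:4090321-4124129, minus strand) measured 113.7, 103.8, 109, 119.8 and 108.9 CPM in withdrawn libraries, 214, 184.5, 168.3, 148.7 and 165 CPM in persister libraries and 86.62 CPM in the parental library. The 3 groups did not overlap: every persister library lay above every withdrawn one, and every withdrawn one above the parental. MAP2K2 rose in persister cells to 176.1 ± 24.71 CPM (SD, n = 5), against 86.62 CPM in the parental library, a log2 fold change of 1.02 ± 0.18 (SE, adjusted p = 0.00184). In withdrawn cells it fell to 111.1 ± 6.05 CPM, against 176.1 ± 24.71 CPM in persister cells (SD, n = 5 each), a log2 fold change of -0.67 ± 0.10 (SE, adjusted p = 0.000165). The fall was seen in 5 of 5 cultures, by -0.91 to -0.31 on the log2 scale, least in culture 4. Withdrawn cells stayed above the parental library in 5 of 5 libraries by 0.36 ± 0.18 on the log2 scale (SE, adjusted p = 0.360), which the test did not call. Without persister 1 and 5, the libraries low in MKI67, MAP2K2 gave 0.95 (adjusted p = 0.000343) against parental cells and -0.59 (adjusted p = 9.74e-05) for withdrawn against persister cells. The other calls of members also held without these libraries.

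MAP2K1 (ENSG00000169032, GRCh38 chr15:66386817-66492312, plus strand) measured 64.61, 64.96, 66.06, 62.22 and 61 CPM in withdrawn libraries, 51.98, 57.42, 56.12, 57.97 and 51.46 CPM in persister libraries and 71.7 CPM in the parental library. The groups were again apart, in the reverse order of MAP2K2: persister libraries were lowest, withdrawn libraries in between and the parental library highest. MAP2K1 fell in persister cells to 54.99 ± 3.06 CPM (SD, n = 5), against 71.7 CPM in the parental library, a log2 fold change of -0.38 ± 0.11 (SE, adjusted p = 0.0228). In withdrawn cells it rose to 63.77 ± 2.09 CPM, against 54.99 ± 3.06 CPM in persister cells (SD, n = 5 each), a log2 fold change of 0.21 ± 0.07 (SE, adjusted p = 0.0180), with all 5 cultures higher by 0.10 to 0.31 log2 units. Withdrawn cells differed from the parental library by -0.17 ± 0.11 (log2, SE, adjusted p = 0.516). These calls were less stable than those of MAP2K2. The fall in persister cells was not called without the filter on low counts (adjusted p = 0.0954) or in a fit of persister and parental libraries alone (adjusted p = 0.191), and the range over all alternatives was 0.00223 to 0.191. The rise after withdrawal was lost without withdrawn 1, 2 or 3, at adjusted p = 0.0549, 0.0537 and 0.0592, and without the filter, at 0.0711. MAP2K1 shares 216 exon bases (5.75%) with SNAPC5 and 432 (11.5%) with the antisense gene AC116913.1, both on the opposite strand. SNAPC5, a subunit of the small nuclear RNA activating complex, had 1315 to 1609 counts in withdrawn libraries, 2172 to 2739 in persister libraries and 1241 in the parental library. It was thus highest in the persister group, where MAP2K1 was lowest. The part of reads from the shared bases in the MAP2K1 counts was not tested. AC116913.1 had 55 to 98 counts in withdrawn libraries, 71 to 96 in persister libraries and 57 in the parental library, far fewer than the 3113 to 4766 counts of MAP2K1 over all libraries.

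The promoter stretches of the MEK genes are shown because these paralogs moved in opposite directions. They are the part of the 250 bases before the first RefSeq start that lies outside the GENCODE exons of the gene, in RefSeq's build GRCh38.p14, written 5′ to 3′ on the strand of the gene. Capitals mark a GC box, the letters GGGCGG on either strand, a motif bound by SP family factors. The MAP2K2 stretch is chr19:4124130-4124372 on the minus strand, 243 bases with 73.7% G or C and 2 GC boxes. The MAP2K1 stretch is chr15:66386662-66386816 on the plus strand, 155 bases with 69.7% G or C and 1 GC box.
MAP2K2: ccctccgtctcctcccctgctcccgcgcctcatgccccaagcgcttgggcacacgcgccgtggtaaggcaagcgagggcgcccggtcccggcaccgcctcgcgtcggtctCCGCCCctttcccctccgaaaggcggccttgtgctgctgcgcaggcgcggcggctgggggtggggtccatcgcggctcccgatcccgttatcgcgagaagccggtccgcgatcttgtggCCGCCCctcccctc
MAP2K1: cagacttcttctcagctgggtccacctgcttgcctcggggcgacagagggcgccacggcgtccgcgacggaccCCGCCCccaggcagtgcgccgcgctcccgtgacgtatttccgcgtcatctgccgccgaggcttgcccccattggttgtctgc
All 7 members had an entry in the promoter table. The whole 250 bases lay inside the GENCODE span of the gene for HRAS, BRAF and MAPK3, and part of them did for the other members. Over the whole 250 bases, GC box matches numbered 6 in MAPK3, 3 each in HRAS and MAP2K1, 2 each in NRAS and MAP2K2, and none in ARAF and BRAF, and 42.6% of 35114 human promoters held at least 1. The CCAAT box, searched as CCAAT on either strand, had 2 matches in ARAF, 1 each in HRAS, BRAF and MAP2K1 and none in NRAS, MAP2K2 and MAPK3, with a share of 32% of all promoters. The E-box letters CACGTG, held by 6.35% of promoters, occurred once each in NRAS and MAPK3. The CRE letters TGACGTCA (1.65% of promoters) and the ETS letters CCGGAAGT (3.42%) did not occur in these windows. A match describes the letters only. Whether these letters bear on the RNA levels of the members was not tested.

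MAPK3 encodes ERK1, the kinase that MEK activates and that carries the signal to transcription factors. MAPK3 (ENSG00000102882, GRCh38 chr16:30114105-30123506, minus strand) measured 48.61, 48, 52.93, 45.18 and 46.54 CPM in withdrawn libraries, 41.66, 39.21, 33.25, 30.84 and 43.58 CPM in persister libraries and 36.3 CPM in the parental library. The withdrawn libraries were the 5 highest, and the persister libraries lay on either side of the parental one. MAPK3 rose in withdrawn cells to 48.25 ± 2.93 CPM, against 37.71 ± 5.46 CPM in persister cells (SD, n = 5 each), a log2 fold change of 0.36 ± 0.10 (SE, adjusted p = 0.0125). All 5 cultures were higher after withdrawal, from 0.095 log2 units in culture 5 to 0.67 in culture 3. Persister cells differed from the parental library by 0.055 ± 0.18 (log2, SE, adjusted p = 0.838), a value whose sign was not stable: it was -0.001 without persister 5. Withdrawn cells exceeded the parental library by 0.41 ± 0.18 (log2, SE, adjusted p = 0.317). MAPK3 was the single member with an unadjusted p under 0.05 in that comparison (0.0463 in edgeR's quasi-likelihood test). DESeq2 and limma-voom also called no member there. A fit of withdrawn and parental libraries alone called 4, beside 30.5% of all genes tested in that fit. These were NRAS at -0.23 (adjusted p = 0.0111), MAP2K1 at -0.19 (adjusted p = 0.0455), MAP2K2 at 0.34 (adjusted p = 0.00433) and MAPK3 at 0.40 (adjusted p = 0.00397).

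Genes of like base composition also differed between the groups. Transcripts of NRAS (38.4% G or C) and BRAF (40.0%) are poor in G and C, that of MAP2K1 is intermediate (50.4%), and those of ARAF (58.9%), MAP2K2 (60.9%), MAPK3 (61.4%) and HRAS (65.8%) are rich. Genes within 2.5 percentage points of MAP2K2 had a median log2 fold change of 0.31 in persister against parental cells, and those near MAPK3 also 0.31, near HRAS 0.39, near BRAF -0.16 and near NRAS -0.21. After withdrawal the medians near these genes were -0.22, -0.23, -0.29, 0.14 and 0.15. Genes near ARAF had 0.305 in persister against parental cells and -0.224 after withdrawal. Genes near MAP2K1 had 0.19 and -0.096, against the direction of MAP2K1 in both comparisons, and MAPK3 after withdrawal (0.36 against -0.23) likewise went against the genes near it. Offsets for this trend in each library, added after the data were seen, left MAP2K2 called at 0.73 (adjusted p = 0.00474) in persister against parental cells and -0.43 (adjusted p = 0.00117) in withdrawn against persister cells. MAP2K1 gave -0.49 (adjusted p = 0.00415) and 0.28 (adjusted p = 0.00247). HRAS at -0.45 (adjusted p = 0.0233) and MAPK3 at 0.59 (adjusted p = 0.000171) stayed called after withdrawal, while BRAF was no longer called, at 0.09 (adjusted p = 0.487). The signs of NRAS, HRAS, ARAF, BRAF and MAPK3 in persister against parental cells, none of them called, turned with these offsets.

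**Figure D3:**
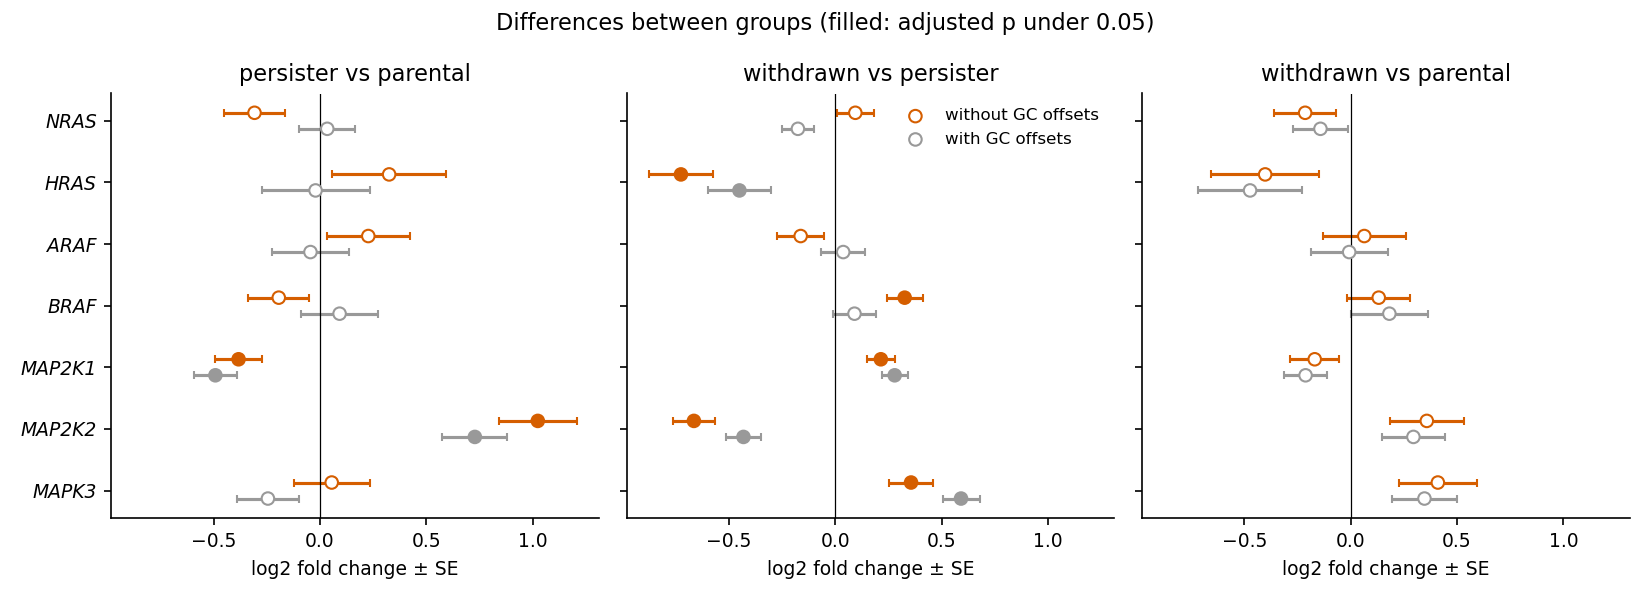
Log2 fold change with its SE (horizontal axes) of each member (rows) in persister against parental, withdrawn against persister and withdrawn against parental cells, from edgeR's quasi-likelihood test and from the same test with offsets for base composition; filled points have an adjusted p under 0.05. MAP2K1 and MAP2K2 are filled on opposite sides of 0 in the left and middle panels with either setting, and no point is filled on the right.

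Levels of different genes were compared within a library as TPM, which divides counts by exon length before scaling to the library. The ranks here use the union of a gene's exons as its length, and several of them differ with the longest transcript. NRAS had the highest TPM of the 7 in all 5 withdrawn libraries (98.51 to 101.7 TPM) and in the parental library (126 TPM). With the longest transcript NRAS still led in the parental library (94.74 TPM). In every withdrawn library MAP2K2 then led instead, at 91.93 to 108.1 TPM against 74.16 to 76.89 TPM for NRAS. With the union of exons, MAP2K2 ranked 2 in every withdrawn library, at 67.97 to 79.77 TPM, and 3 in the parental library, at 63.06 TPM. In persister cells MAP2K2 led in 4 of 5 libraries, with 92.96 to 112 TPM over all 5, ahead of NRAS at 65.07 to 105.4 TPM. The exception was persister 4, where NRAS led. With the longest transcript MAP2K2 led there too, at 126.4 TPM against 80 TPM for NRAS. MAP2K1 ranked 3 or 4 in withdrawn libraries, 4 or 5 in persister libraries and 2 in the parental library. With the longest transcript ARAF lay above MAP2K1 in the parental library, at 64.48 against 60.28 TPM. ARAF ranked 3 to 5 over all libraries and HRAS 3 to 6, so that ARAF, MAP2K1 and HRAS changed places between libraries. MAPK3 ranked 5 in every withdrawn library and 6 in every persister library and in the parental one. With the longest transcript MAPK3 lay above MAP2K1 in withdrawn 3 (54.72 against 51.42 TPM) and persister 1 (33.3 against 31.28 TPM). BRAF was last in all 11 libraries, at 8.46 to 9.09 TPM in withdrawn, 5.03 to 6.55 TPM in persister and 8.74 TPM in parental cells. Its rank rests partly on length: the union of its exons is 23432 bases, against 9578 for its longest transcript, with which it measured 9.47 to 16.9 TPM over all libraries and was still last. TPM levels were not used between groups, since that scale can differ from CPM: ARAF averaged 58.25 TPM in withdrawn and 55.69 TPM in persister cells, the reverse of its order in CPM.

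Set against each other within a library, the MEK paralogs shifted in their shares. The ratio of MAP2K2 to MAP2K1 in TPM was 1.25 ± 0.0919 in withdrawn cells, 2.31 ± 0.407 in persister cells (SD, n = 5 each) and 0.867 in the parental library. It ran from 1.15 to 1.38 in withdrawn libraries and from 1.84 to 2.96 in persister libraries, so the groups did not overlap. MAP2K2 thus held 55.5% of the MEK total in withdrawn cells, 69.5% in persister cells and 46.4% in parental cells. With the length of the longest transcript these shares were 67.0%, 78.7% and 58.5%. MAP2K2 then exceeded MAP2K1 in every group, so which of them was higher in the parental library depended on the length used. For the RAS genes, the ratio of HRAS to NRAS was 0.337 ± 0.0406 in withdrawn cells, 0.608 ± 0.169 in persister cells (SD, n = 5 each) and 0.384 in the parental library. Withdrawn libraries (0.28 to 0.393) lay below every persister library (0.406 to 0.843), and the parental library lay within the withdrawn range. With the longest transcript the ratio was 0.506 in withdrawn cells, 0.914 in persister cells and 0.578 in the parental library. HRAS then exceeded NRAS in persister 1 (1.01) and persister 2 (1.27), so which of them was higher there depended on the length used. For the RAF genes, ARAF over BRAF was 6.63 ± 0.296 in withdrawn cells, 9.38 ± 1.82 in persister cells (SD, n = 5 each) and 6.95 in the parental library. Persister 2, at 6.85, fell within the withdrawn range of 6.38 to 7.14, and the other 4 persister libraries lay above it. With the longest transcript ARAF over BRAF was 3.82 in withdrawn cells, 5.41 in persister cells and 4.01 in the parental library. With the offsets for base composition, the log2 difference between withdrawn and persister cells was -0.276 for HRAS over NRAS, against -0.815 without them, -0.053 for ARAF over BRAF, against -0.48, and -0.712 for MAP2K2 over MAP2K1, against -0.871.

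**Figure D4:**
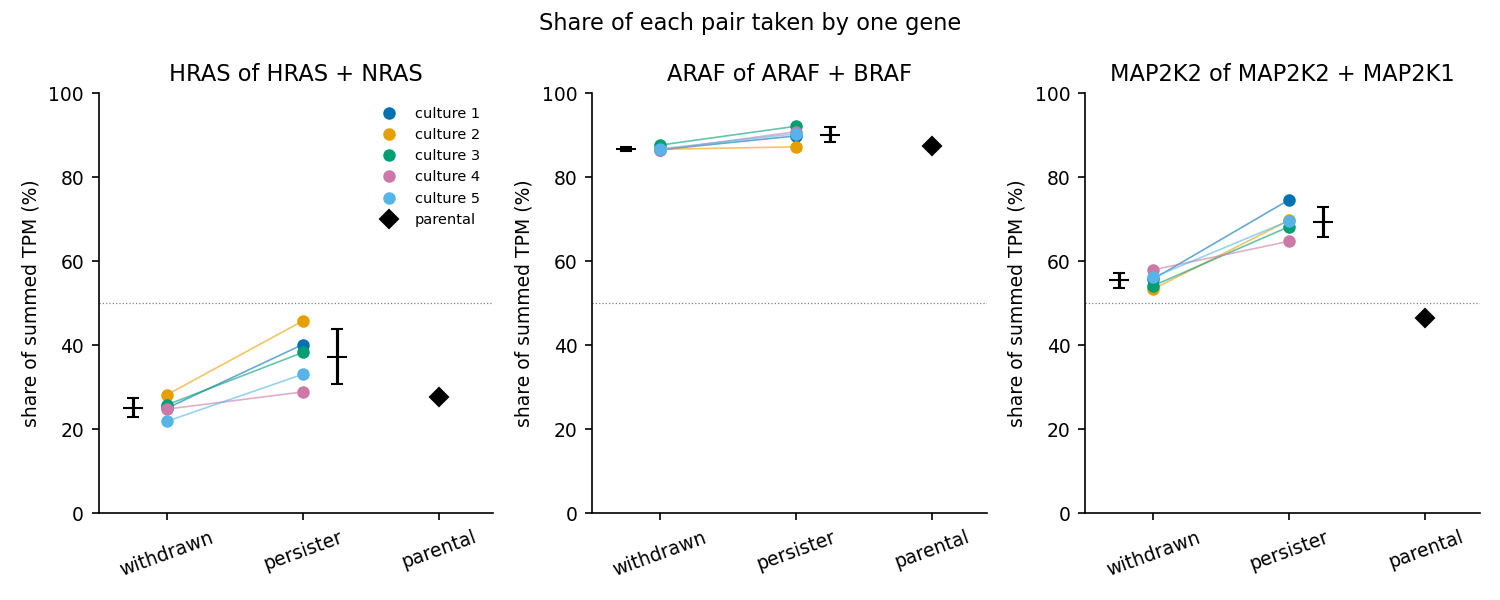
Share of HRAS in HRAS plus NRAS, of ARAF in ARAF plus BRAF and of MAP2K2 in MAP2K2 plus MAP2K1 (vertical axes, percent of summed TPM) in withdrawn, persister and parental libraries; points are libraries, joined by culture, diamonds are the parental library, and bars are the mean and SD of 5 libraries. MAP2K2 holds 64.8% to 74.7% of the MEK total in persister libraries, 53.4% to 58.0% in withdrawn libraries and 46.4% in the parental library.

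Around these genes, 96 other genes of the pathway were followed, in lists drawn up with earlier results of these data known. Of these 96 genes, 92 were tested. In persister against parental cells 16 were higher and 21 lower, beside 31.2% of all genes called, and in withdrawn against persister cells 30 were higher and 31 lower, beside 52.5%. Against parental cells 2 were called in withdrawn cells, both higher, beside 0.431% of all genes. By direction, 16.1% of all genes were called higher and 15.1% lower in persister against parental cells. In withdrawn against persister cells these shares were 24.5% and 28%, and the counts of each list below stand beside them. The RAS GTPase-activating proteins, which switch RAS off by speeding GTP hydrolysis, had 6 of 10 lower and none higher in persister against parental cells, beside 15.1% of all genes called lower, with a median log2 fold change of -0.77. After withdrawal 8 of the 10 were higher and none lower, beside 24.5% of all genes called higher, with a median of 0.70. RASA2 fell to 9.93 ± 1.91 CPM in persister cells (SD, n = 5), against 43.13 CPM in the parental library (log2 fold change -2.12 ± 0.20 SE, adjusted p = 2.4e-05). RASA3 fell by 0.82 on the log2 scale (adjusted p = 0.000579) and DAB2IP by 1.25 (adjusted p = 0.000991). After withdrawal the log2 fold changes against persister cells were 1.98 for RASA2, 0.84 for RASA3 and 0.87 for DAB2IP, with adjusted p of 5.2e-07, 4.4e-06 and 0.000162.

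The RAS relatives, small GTPases close to RAS in sequence, had 4 of 6 higher and none lower in persister against parental cells, beside 16.1% of all genes called higher. After withdrawal 5 of 6 were lower and 1 higher, beside 28% of all genes called lower. RRAS, which regulates integrin adhesion, had 22.25 ± 2.30 CPM in withdrawn cells, 43.15 ± 7.59 CPM in persister cells (SD, n = 5 each) and 7.22 CPM in the parental library. It was higher in persister than in parental cells (log2 fold change 2.58, adjusted p = 6.33e-05), fell after withdrawal (-0.96, adjusted p = 8.62e-05) and was still above the parental library (1.62, adjusted p = 0.0257). The last call was lost without withdrawn 1, 3, 4 or 5, at adjusted p of 0.0507 to 0.0677, and with limma-voom, at 0.0534. RAP1B, another adhesion GTPase, averaged 154.3 ± 5.16 CPM in withdrawn cells, 592.2 ± 105.4 CPM in persister cells (SD, n = 5 each) and 170.3 CPM in the parental library, with log2 fold changes of 1.80 (adjusted p = 0.000245) under the drug and -1.94 (adjusted p = 3e-07) after it. RIT1, a RAS-like GTPase, rose by 1.05 under the drug (adjusted p = 0.00986) and changed by -0.73 after withdrawal (adjusted p = 0.000906). Of the RAS exchange factors, which load RAS with GTP, 6 of 8 were tested, and 1 was higher and 2 lower in persister cells. RASGRP3 averaged 1.52 ± 0.245 CPM in withdrawn cells, 8.73 ± 3.12 CPM in persister cells (SD, n = 5 each) and 0.383 CPM in the parental library (log2 fold change 4.51 ± 0.59 SE under the drug, adjusted p = 0.000253). SOS1 fell by 0.56 in persister cells (adjusted p = 0.00851). Its rise after withdrawal, 0.23 with an adjusted p of 0.0275, was lost without persister 3 or withdrawn 2, 3 or 5, without the filter on low counts (adjusted p = 0.0698) and with the replicate block (adjusted p = 0.0673), and its sign turned with the offsets for base composition (-0.057). After withdrawal 2 exchange factors were higher and 3 lower, RASGRP3 by -2.52 (adjusted p = 9.04e-06) and RASGRF2 by -1.33 (adjusted p = 0.00163) on the log2 scale.

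Receptor adaptors, which link receptors to RAS, had 2 of 11 higher and 1 lower under the drug, and 4 higher and 3 lower after it. Of all genes, 31.2% and 52.5% were called in these comparisons. PTPN11, the phosphatase SHP2, fell by 0.58 on the log2 scale in persister cells (adjusted p = 0.0220), and SHC1 rose by 0.69 (adjusted p = 0.0295). After withdrawal the docking proteins GAB2 and GAB1 rose by 1.51 (adjusted p = 2.06e-06) and 0.55 (adjusted p = 0.00666), and SHC1 fell by 0.63 (adjusted p = 0.000909). GAB2 was also above the parental library in withdrawn cells (1.21, adjusted p = 0.0487), a call lost without any of the 5 withdrawn libraries or persister 3, at adjusted p of 0.0560 to 0.111, with RLE scaling, at 0.0538, and with the offsets for base composition, at 0.0658. Of 10 genes for RAS processing and turnover, 1 was higher and 1 lower under the drug, and 2 were higher and 4 lower after it. The depalmitoylating enzyme LYPLA1 fell by 1.23 (adjusted p = 0.00103) under the drug and rose by 1.02 (adjusted p = 4.65e-05) after it. ZDHHC9, which palmitoylates RAS, did the reverse, at 0.93 (adjusted p = 0.00150) and -0.64 (adjusted p = 8.76e-05). PDE6D, a carrier of prenylated RAS, rose by 0.50 after withdrawal (adjusted p = 0.000543).

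Scaffolds and RAF regulators had 3 of 17 higher and 3 lower under the drug, and 3 higher and 6 lower after it, beside 31.2% and 52.5% of all genes called. PAQR3, which holds RAF at the Golgi, fell by 1.70 on the log2 scale (adjusted p = 0.000118) under the drug. PEA15, which keeps ERK in the cytoplasm, averaged 184.3 ± 15.91 CPM in withdrawn cells, 512.3 ± 61.81 CPM in persister cells (SD, n = 5 each) and 154.5 CPM in the parental library, with log2 fold changes of 1.73 (adjusted p = 0.000121) under the drug and -1.48 (adjusted p = 6.97e-07) after it. The scaffold CNKSR2 had 11.02 ± 2.04 CPM in withdrawn cells, 1.05 ± 0.656 CPM in persister cells (SD, n = 5 each) and 17.58 CPM in the parental library, with log2 fold changes of -4.08 (adjusted p = 0.000308) and 3.40 (adjusted p = 4.44e-05). PEBP1, a RAF inhibitor, fell by 0.83 after withdrawal (adjusted p = 6.29e-05). Of the other MEK and MAP kinases, most of which serve the p38, JNK and ERK5 arms, 15 of 16 were tested. Under the drug 4 were higher and 3 lower, and after it 3 were higher and 5 lower. MAP2K6, an activator of p38, fell by 1.94 (adjusted p = 0.000123) under the drug and rose by 1.72 (adjusted p = 3.99e-06) after it. The p38 kinases MAPK12 and MAPK11 rose by 1.02 (adjusted p = 0.0129) and 0.85 (adjusted p = 0.0282) under the drug. MAPK12 fell by 1.00 (adjusted p = 0.000123) and MAPK7, which encodes ERK5, by 0.76 (adjusted p = 0.000202) after withdrawal. With the offsets for base composition SOS1, SHC1, MAPK12, MAPK11 and MAP3K11 were no longer called under the drug, at adjusted p of 0.388, 0.101, 0.0577, 0.156 and 0.113.

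Of the upstream MAP3K genes, 5 of 6 were tested: 1 was higher and 1 lower under the drug, and 1 higher and 2 lower after it. MAP3K1 fell by 1.38 on the log2 scale (adjusted p = 0.000529) under the drug and rose by 1.36 (adjusted p = 7.21e-06) after it, while MAP3K11 gave 0.59 (adjusted p = 0.0106) and -0.30 (adjusted p = 0.00833), the second lost with the offsets for base composition (-0.10, adjusted p = 0.319). Of the ERK substrate kinases and transcription factors, 4 of 12 were lower and none higher under the drug, beside 15.1% of all genes called lower. After it 6 were higher and 3 lower, beside 24.5% of all genes called higher and 28% lower. RPS6KA3, the kinase RSK2, had 413.7 ± 41.24 CPM in withdrawn cells, 48.37 ± 11.67 CPM in persister cells (SD, n = 5 each) and 531.4 CPM in the parental library. Its log2 fold changes were -3.46 ± 0.22 (SE, adjusted p = 1.85e-06) under the drug and 3.10 ± 0.17 (SE, adjusted p = 1.12e-07) after it. RPS6KA2, another RSK kinase, rose by 1.95 after withdrawal (adjusted p = 4.58e-05). ELK3, an ETS factor, fell by 1.49 (adjusted p = 3.03e-05) under the drug and rose by 1.39 (adjusted p = 4.91e-07) after it, and ELK4 fell by 0.69 (adjusted p = 0.00584) under the drug. In a fit of persister and parental libraries alone RIT1, SOS1, PTPN11, SHC1, MAPK12, MAPK11, MAP3K11 and ELK4 were no longer called, at adjusted p of 0.0795, 0.0921, 0.153, 0.143, 0.0649, 0.127, 0.102 and 0.0803, and without the filter on low counts MAPK11 was lost as well (adjusted p = 0.0598).

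**Figure D5:**
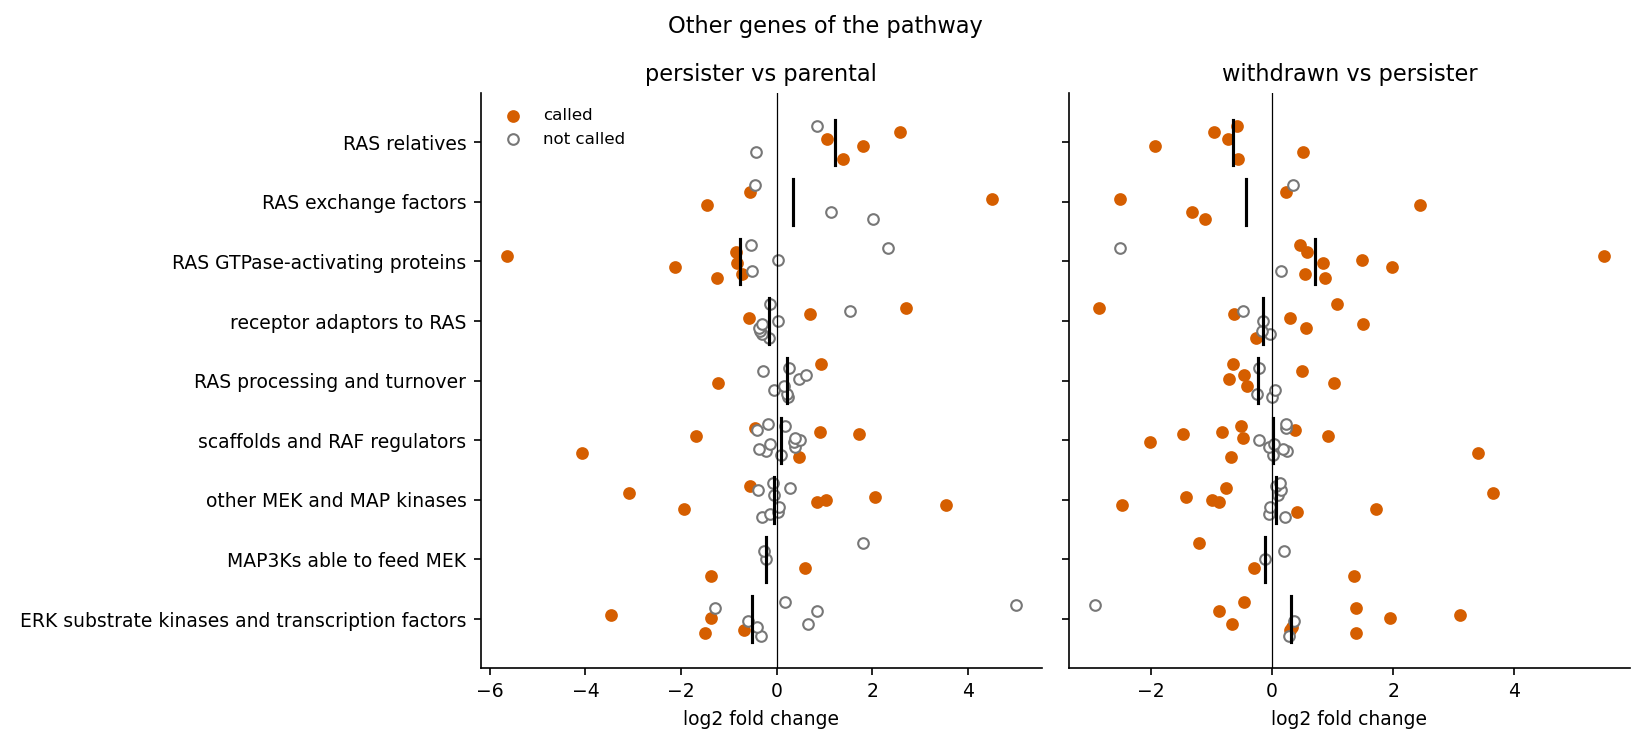
Log2 fold change (horizontal axes) of the other pathway genes, by list (rows), in persister against parental cells (left) and withdrawn against persister cells (right); points are genes, filled where the adjusted p was under 0.05, and black lines are the medians of the tested genes. The GTPase-activating proteins have medians of -0.77 on the left and 0.70 on the right, and the RAS relatives 1.22 and -0.65.

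For each member, the protein-coding genes with the most similar profile over the 11 libraries were found by Pearson's r of log2 CPM among 9788 candidates, as a description with no test. The points share the 3 groups, so such values are high for many genes. MAP2K2 was followed most closely by ABCB8 (r = 0.989) and NSMF (r = 0.984), and MAP2K1 by AHCTF1 (r = 0.979) and ZBTB39 (r = 0.978). NRAS was closest to TP53BP2 (r = 0.966) and GNAI3 (r = 0.957), and HRAS to ZNF787 (r = 0.974) and EHD1 (r = 0.968). ARAF was closest to PAGE2 (r = 0.965) and UBA1 (r = 0.960), which also lie on the X chromosome. BRAF was closest to C10orf90 (r = 0.978) and DCAF6 (r = 0.967), and MAPK3 to CAMTA2 (r = 0.966) and EML2 (r = 0.961). Between members, MAP2K1 and MAP2K2 had r = -0.92 over the 11 libraries and -0.448 among the deviations of 10 libraries from their group means. BRAF and MAPK3 had 0.78 and 0.508, and NRAS and MAPK3 had -0.25 and -0.808.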

How the data were processed

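Read counts per gene were deposited by the authors as 1 table of whole numbers, not normalized, with 1 column for each of 11 libraries. Stranded poly(A) libraries were made from column-purified RNA, per the labels' protocols. The submitters' processing notes name bcl2fastq, HISAT2, HTSeq and hg38. Not given in the sources used here are tool versions, the strand setting and the annotation. All 58721 gene IDs matched GENCODE 29, which gave symbols, lengths and GRCh38 coordinates. Total counts of 56513920 to 82984566 set the precision.

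Tests were run in R 4.3.3 by edgeR 4.0.16, with filterByExpr (minimum count 10, minimum total 15), scaling by TMM, a robust quasi-likelihood fit of all libraries in 3 groups (8 residual degrees of freedom) and Benjamini-Hochberg adjustment over 23693 genes. The single parental library was assumed to vary like the others. CPM and TPM were computed from the counts, with log2 CPM using a prior count of 2. The tests were tried on simulated data, with an outcome not reported here. The simulation gave the parental library the same spread as the others, so it could not check whether that library varies like them.

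Named were all members; from each pathway list and comparison up to 3 called genes of smallest adjusted p whose mean log2 CPM was 1 or more; and per member the 2 most similar genes whose mean log2 CPM reached 3. Genes named beside these (markers, check genes, exon-sharing genes) come from fixed lists or overlaps. The members and lists were chosen with earlier results of these data known.

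Alternatives were DESeq2 1.42.0, limma-voom (limma 3.58.1), RLE scaling, other filters, fits of the compared groups alone, libraries left out, a replicate block and, added after the data were seen, GC offsets. Withdrawn samples take their names from persister cultures, so equal numbers pair them. Deviations of same-numbered libraries from their group means had correlations of 0.0793 to 0.1456 across 12944 genes, and 4 of 5 persister libraries correlated best with their own number.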

Additional observations from a re-analysis of the deposited data

Results flagged for a closer look

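Of 20 groups of values checked for a library far from the rest of its group, 1 had such a library, and chance gives about 1 in 20. The level of ARAF was 47.16 CPM in persister 2, against 68.08 to 73.07 CPM in the other 4 persister libraries: the gap to the nearest library was 0.807 of the range of the group, above the critical value of 0.71 for 5 libraries. In the same library 45 of 52 genes within 5 Mb of ARAF lay below the other persister libraries. Their part in the value of ARAF was not tested.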

How the results depend on the processing

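Of 1476 values of single genes under the alternatives, 44 over 16 results lost their call, 7 gained one and 14 over 9 results changed sign. The log2 ratios of paralogs, withdrawn minus persister cells, ran from -0.949 to -0.685 for HRAS/NRAS (-0.815 in the analysis reported), -0.588 to -0.388 for ARAF/BRAF (-0.48) and -0.949 to -0.778 for MAP2K2/MAP2K1 (-0.871) with 1 library left out. Another transcript length cannot change such a difference. With GC offsets they were -0.276, -0.053 and -0.712.

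With the replicate block, 10630 genes and the same 5 members were called between withdrawn and persister cells, MAP2K1 at an adjusted p of 0.0497; it ended no member's call, but the rise of SOS1 was lost (adjusted p = 0.0673).

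Comparisons with the single parental library depended most on the fit, and the cause was not tested. Between withdrawn and parental cells 102 genes were called: 1072 with DESeq2, 155 with at least 10 counts in 5 libraries, 6593 in a fit of the 2 groups alone, 2086 without persister 1 and 5, and 23 to 558 with 1 library left out (169, 361, 67, 178 and 558 without persister 1 to 5, and 27, 62, 29, 27 and 23 without withdrawn 1 to 5). Pathway genes called higher there, 2 in the analysis reported, numbered 1 with RLE scaling, limma-voom or GC offsets, 14 with the 2 groups alone, 4 without persister 1 and 5 and 0 to 3 with 1 library left out. Lower were 1 with DESeq2, 26 with the 2 groups alone and 4 without persister 1 and 5. The 2 groups alone called 4 members, beside 30.5% of all genes tested in that fit. The share of higher calls there was 72.5% in the analysis reported, 62.3% with GC offsets and 52.3% with limma-voom. Between persister and parental cells, the 2 groups alone called 2569 genes, 5 pathway genes higher and 11 lower, and 1 member; no filter also called 1 member.

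Values that changed sign were, between persister and parental cells, MAPK3 at -0.001 without persister 5 (up to 0.118 with another library left out) and -0.072 without persister 1 and 5, and with GC offsets NRAS at 0.034, HRAS at -0.021, ARAF at -0.045, BRAF at 0.092 and MAPK3 at -0.25. Between withdrawn and persister cells they were NRAS at -0.18, ARAF at 0.037 and SOS1 at -0.057 with GC offsets, and at -0.17, 0.053 and -0.047 with the block as well. Between withdrawn and parental cells it was ARAF at -0.007 with GC offsets.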

Other observations

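Along the X chromosome in bins of 10 Mb, the median log2 deviation of persister 2 from the other 4 persister libraries was below 0 in 15 of 16 bins. It was -0.81 in the bin from 50 to 60 Mb (33 of 39 genes below), -0.45 in the bin that holds ARAF, from 40 to 50 Mb (41 of 53 genes below), and 0.22 in the bin from 90 to 100 Mb, which holds 4 genes. On chromosome 1 the same library had a median of -0.21, and the 49 genes within 5 Mb of NRAS had -0.23 with NRAS itself at -0.14.

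Pseudogene copies of the members had few counts. BRAFP1 had 8 to 30 counts per library, MAP2K1P1 had 0 to 4, and ARAFP1, ARAFP2 and ARAFP3 had none, in a counting whose treatment of reads shared between copies is not given in the sources used here.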
